A study of Mus musculus with 12 samples.

Results

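The 10 genes described here encode enzymes of, and proteins related to, the methionine cycle (Mat2a, Mat2b, Ahcy, Ahcyl1, Cbs and Mtrr) and enzymes of polyamine synthesis (Amd1, Odc1, Srm and Sms). They were taken by name from the gene annotation of RNA bisulfite sequencing (RNA BS-seq) lists, and stand among 14396 genes with at least 1 listed exonic cytosine. The cells were neural stem cells (NSCs) of the subventricular zone, from wild-type male C57BL/6 mice aged 6 to 8 weeks, grown with EGF and bFGF. Folic acid in the medium was 1.5 μM in LF, 10 μM in MF and 80 μM in HF, over 4 days. BS-seq was performed on total poly(A) RNA (LF, MF, HF) and on poly(A) RNA of polysomes, the gradient fractions with more than 3 ribosomes after cycloheximide (pLF, pMF, pHF). Each of the 6 conditions had 2 replicates, giving 12 libraries. MF and pMF served as the controls of both other concentrations, so comparisons with them share those libraries.

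The methionine cycle turns methionine into S-adenosylmethionine (SAM), the methyl donor of nearly all cellular methylation, including m5C in RNA. After SAM gives up its methyl group, the product is split to homocysteine, which is methylated back to methionine with a methyl group from folate or is drained into cysteine synthesis. Decarboxylated SAM instead supplies the aminopropyl groups of spermidine and spermine, so polyamine synthesis draws on the same pool.

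Bisulfite turns unmethylated C into U, which is read as T, so a C that remains counts as an unconverted read. A cytosine entered a list from a coverage of 10 reads on, and only with an unconverted read among them. The methylation level is the share of C among C plus T reads. Summed coverage per library was between 1186213013 and 2857966129. The libraries labelled HF stood apart: 21195 and 27353 of their cytosines were listed with a variant base, against 4734 to 11495 in 9 others. pHF replicate 2 did so as well, with 18155 of these, a median coverage of 920 against 335 to 605 elsewhere, and 38353 levels over 0.9 against 3465 at most. Comparisons of the members that rest on these libraries are also given without 1 of them where that ended a call or turned a direction, and without pHF replicate 2 for each member called in pHF. Of 6 NSC markers 5 had 20 or more exonic cytosines in all 12 libraries (Nes, Vim, Pax6, Fabp7 and Msi1), and no cytosine was assigned to Sox2, whose gene lies within Sox2ot, so its coverage cannot be read from the gene names. Of other cell types this held for 1 of 5 neuronal, 1 of 4 astrocyte, 1 of 5 oligodendrocyte lineage, 0 of 4 microglial, 0 of 3 endothelial and 2 of 5 mural cell or fibroblast markers (Acta2 and Pdgfrb), whose part in the results was not tested.

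A methylated site was taken as a cytosine covered by 20 reads or more, of which 6 or more were methylated, at a level from 0.1 on. A single cytosine of the members passed this filter in both replicates of a condition, and it lies in Cbs. Cystathionine beta-synthase, the product of Cbs, commits homocysteine to cysteine synthesis. The site is at chr17:31626013 on the minus strand of GRCm38, in exon 4 of 17 (chr17:31625883-31626017, 135 bases) of the transcript Cbs-211. It is base 5 of that exon and base 3 of codon 104, and it lies in the coding sequence of 8 of the 9 coding transcripts. Its surroundings are shown because the comparisons of RNA methylation below turn on this one C, the capital letter. They run 5′ to 3′, first as in the genome, where the last bases of intron 3 precede the exon, and then as spliced:
Cbs genomic: tctcagtggcCaagtgtgagt
Cbs spliced: agctcttggcCaagtgtgagt
The 10 bases after the C hold 4 G. Within 60 bases, 12 other cytosines were listed in 1 to 4 libraries each, at levels of 0.0860% to 1.57%.

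The level of the Cbs site in LF was 8.13% (82 of 1008 reads) and 4.70% (47 of 999). MF replicates had 5.55% (62 of 1117) and 6.47% (72 of 1112). The libraries labelled HF had 16.2% (45 of 277) and 10.1% (29 of 288). Total RNA of LF and MF was thus lower than that of the libraries labelled HF, with no overlap. Among the polysome libraries, pLF had 10.5% (34 of 324) and 11.7% (50 of 426). The pMF replicates stood at 13.4% (45 of 336) and 15% (45 of 300). Those of pHF stood at 20.6% (47 of 228) and 11.4% (49 of 430). All 6 polysome levels were above the 4 levels of LF and MF, and the libraries labelled HF reached into the polysome range. Wilson 95% intervals, which cover counting error only, were narrowest in LF replicate 2 (3.56% to 6.20%) and widest in pHF replicate 1 (15.9% to 26.3%).

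**Figure D1:**
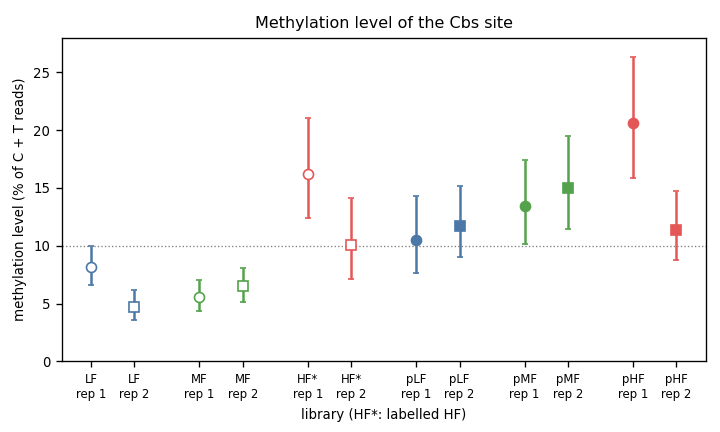
Methylation level of the Cbs site in percent of C plus T reads, by library, with Wilson 95% intervals; open symbols are total RNA, filled symbols polysome RNA, circles replicate 1 and squares replicate 2. The dotted line is the level of 10% that the filter asks for; the 4 LF and MF libraries, at 4.70% to 8.13%, lie below it and the 6 polysome libraries, at 10.5% to 20.6%, above it.

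The site passed the filter in pLF, pMF, pHF and the libraries labelled HF, and in no library of LF or MF. In the comparisons of pMF with MF, pLF with LF and the libraries labelled HF with MF it thus entered through the group in which it was high, and the differences and p-values there are a description and no support for a direction. The mean level in polysome and total RNA at MF was 14.2% ± 1.1 and 6.01% ± 0.65 (SD, n = 2 each), a difference of the means of 8.18 percentage points (Fisher's exact test on pooled reads, two-sided, Benjamini-Hochberg adjusted p = 1.57e-09 over 403 sites). Limma on log odds gave an adjusted p of 0.0281, and 0.0586 with the replicate number as a block. At LF the polysome mean was 11.1% ± 0.88 and the total mean 6.42% ± 2.43, which is 4.70 points apart (Fisher's exact test, adjusted p = 0.000123 over 480 sites). This call was lost in limma on log odds (adjusted p = 0.101), and without LF replicate 2 (Fisher's exact test, adjusted p = 0.0520). The sites tested were those that passed the filter in both replicates of either group, and calls were common among them: 53.6% of sites were called between pMF and MF, and 65% between pLF and LF. The Cbs site was known as called in polysome lists of these same libraries, so its direction here is not independent evidence.

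Between pHF and the libraries labelled HF the difference was 2.85 points and was not called (Fisher's exact test, adjusted p = 0.596), against 65.3% of 649 sites called. Without pHF replicate 2 it was 7.46 points (adjusted p = 0.0151), without pHF replicate 1 it was -1.76 points, and without HF replicate 2 it was -0.24 points. Over all 6 polysome and 6 total libraries, the mean levels were 13.8% ± 3.7 and 8.53% ± 4.24. The difference of 5.24 points was 7.56 without the libraries labelled HF and 5.72 without pHF replicate 2. The study, after further filters, lists Cbs as neutral between m5C and translation at each folate concentration. That class holds mRNAs with a site called between total and polysome RNA but no significant change in abundance between them. Its call at HF thus differs from the result here.

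Folate concentration was compared within each RNA fraction. LF and MF differed by 0.41 points at the Cbs site (adjusted p = 1 by Fisher's exact test), where the site was added to the test since it did not pass the filter, and where 0.76% of 1843 sites were called. In polysome RNA, the difference of pLF from pMF was -3.08 points (Fisher's exact test, adjusted p = 0.499), with 9.68% of sites called, and that of pHF from pMF was 1.81 points (1 after adjustment), with 9.1% called. The latter was -2.80 points without pHF replicate 1 and 6.42 points without pHF replicate 2 (Fisher's exact test, adjusted p = 0.601 and 0.259). The mean of the libraries labelled HF, which alone passed the filter here, was 7.14 points from that of MF (Fisher's exact test, adjusted p = 8.93e-08, limma on log odds 0.0375, and 0.0553 with the replicate block), a comparison in which 94.3% of the 1138 sites were called, 943 higher and 130 lower.

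No other cytosine of the members passed the filter in more than 1 library. Between 964 and 2539 member cytosines with a coverage of at least 20 were listed per library, and at most 5 of them passed the filter (HF replicate 1). Those 5 were 0.230% of the 2177 in that library, where 6369 of all 2043837 cytosines listed from a coverage of 10 on passed. In pHF replicate 2 it was 1 of 964, beside 5592 of 779105. Passing was thus rare among all cytosines as well. Beside the Cbs site, 7 cytosines passed in 1 library each: 1 in Ahcy, 2 in Ahcyl1 and 1 each in Amd1 (intronic), Mat2a, Mat2b and Sms. In Ahcyl1, which encodes a protein related to S-adenosylhomocysteine hydrolase that regulates inositol trisphosphate signalling, chr3:107664596 had levels of 11.1% and 7.22% in the libraries labelled HF and at most 0.694% in the 8 other libraries that listed it. The Mat2a cytosine at chr6:72434130 had 21.4% and 14.3% in the libraries labelled HF and 14.8% in pLF replicate 2, at a coverage of 42, 35 and 27, against 2.5% to 3.57% in LF and MF replicate 2 and 9.09% in pLF replicate 1, where the coverage was 11. In pLF replicate 2, 19 Mat2a cytosines with a coverage of at least 20 had a level from 0.1 on, up to 23.8%, and none passed the filter. No cytosine of Odc1, Srm or Mtrr passed it in any library. The pooled level over listed cytosines under 0.05 was between 0.124% and 0.229% over all members. The 4 LF and MF libraries were lowest at 0.124% to 0.141%, with pHF replicate 2 at 0.145%. The libraries labelled HF were at 0.165% and 0.190%, and the other polysome libraries at 0.192% to 0.229%. Cytosines without an unconverted read are not listed, so this level depends on coverage and does not measure conversion. In Amd1 it was 1.46% in pLF replicate 1, at a median coverage of 56. In Odc1 it was 0.0991% in pHF replicate 2, at a median coverage of 5038.

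The coverage of a gene was summarised as the median over its exonic cytosines with a level under 0.05, which is free of gene length, after scaling each library by the median of its gene-wise differences. This tracks how much of the gene's RNA was read, relative to other genes, and fewer cells expressing a gene cannot be told apart from less RNA per cell. Of the 10 members, all had the required 20 cytosines in each library. From the highest to the lowest, the mean scaled coverage over the 12 libraries was 1408 in Odc1, 915 in Srm, 875 in Ahcyl1, 664 in Mat2b, 619 in Ahcy, 549 in Mat2a, 519 in both Cbs and Sms, 259 in Amd1 and 194 in Mtrr. The order was not that of each condition: Odc1, whose mean includes 4024 in pHF replicate 2, was below Srm in pLF (means of 889 and 1055) and pMF (762 and 1297), and below Ahcyl1 and Mat2a in the libraries labelled HF (684 beside 1219 and 760). Neighbours in this order overlapped over the libraries. Mtrr, with 130 to 292 in the 10 libraries not labelled HF, lay wholly below Srm there. The members spread by 0.19 (Srm) to 0.87 (Amd1) on the log2 scale between replicates.

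**Figure D2:**
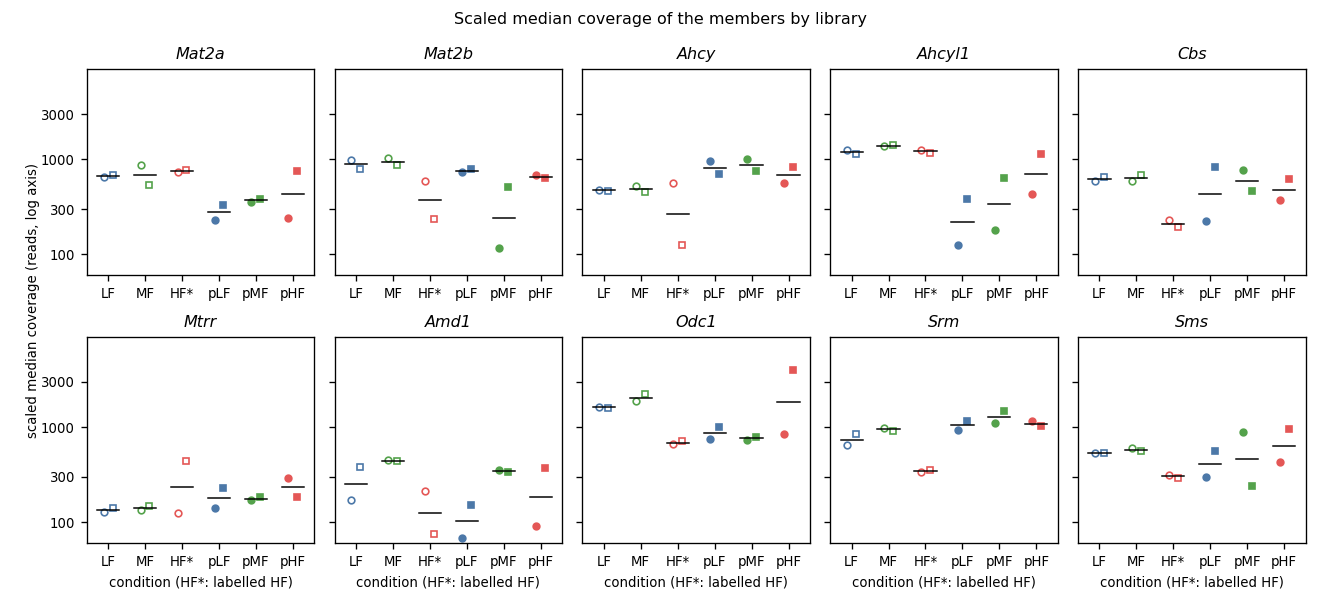
Scaled median coverage of the 10 members in reads (log axis) by library; open symbols are total RNA, filled symbols polysome RNA, circles replicate 1, squares replicate 2, lines the geometric mean of the replicates. In Srm the libraries labelled HF, at 339 and 359, lie below all other libraries; in Ahcyl1 the polysome libraries spread from 127 to 1127.

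Since a cytosine was listed only with an unconverted read, the positions behind a median differed between libraries. Only Odc1 (108), Ahcyl1 (7), Sms (3) and Srm (1) had exonic cytosines listed in all 12. A second measure, added after the data were seen, therefore fitted log2 coverage as position plus library within each gene, over cytosines listed in at least 2 libraries. It is given as a ratio to the gene's geometric mean over the 12 libraries and carries no level between genes. Its spread between replicates, given as the SD within groups, was between 0.07 (Srm) and 0.27 (Ahcy) on the log2 scale in 9 members, and 0.55 in Amd1. All 10 members and 7674 genes could be tested with it, with at least 5 fitted cytosines in each library against 20 for the median.

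**Figure D3:**
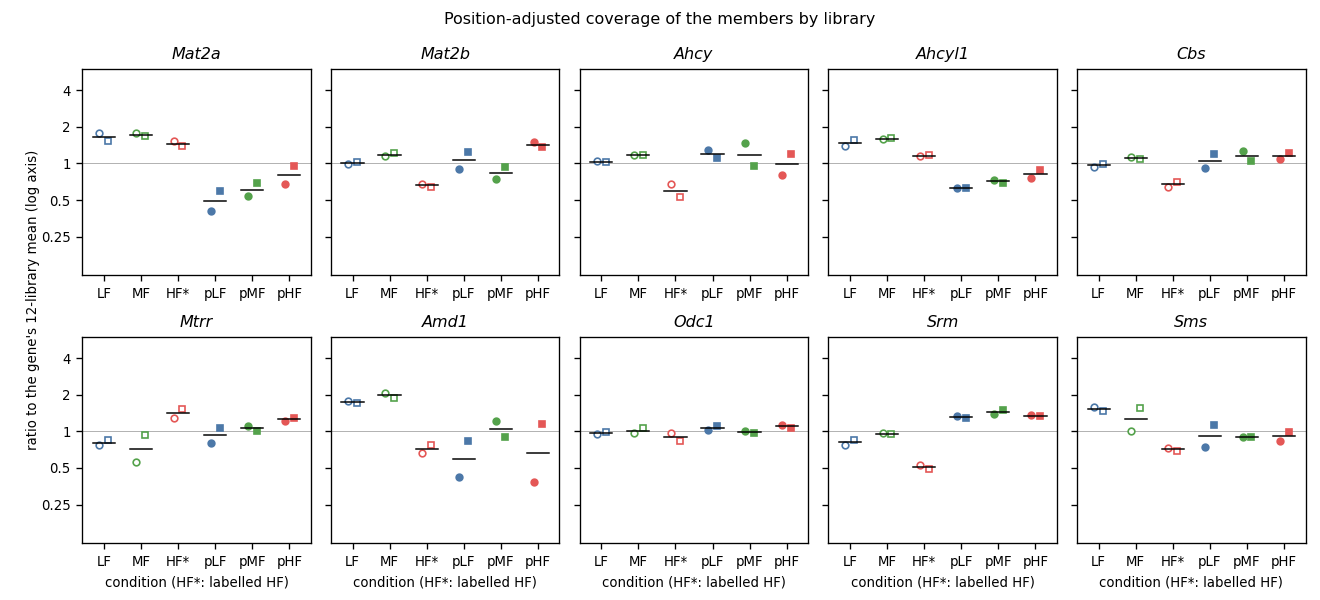
Position-adjusted coverage of the 10 members by library, as a ratio to the gene's mean over the 12 libraries (log axis); symbols as in the plot of scaled median coverage. Mat2a, at 1.39 to 1.79 in total and 0.41 to 0.96 in polysome RNA, and Ahcyl1 separate the fractions, and Srm is lowest in the libraries labelled HF.

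Several members have near-identical matches elsewhere in GRCm38, and reads were kept only where they aligned uniquely. At 95% identity over at least 100 bases, matches covered 99.8% of the Amd1 transcript, 91.9% of Odc1, 82.0% of Ahcy, 44.4% of Sms, 27.7% of Mtrr and 11.6% of Cbs, though not the Cbs site. Mat2a, Mat2b, Ahcyl1 and Srm had none. The matches of Cbs lay on 20 chromosomes, against 2 to 6 for the other matched members. Repeats were not masked, so a match need not be a copy of the gene. Coverage of Amd1, Odc1 and Ahcy is uncertain to that extent.

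Between LF and MF, no member passed the test in total RNA. Limma called 0 of 10 members by median coverage, and 0 had an unadjusted p under 0.05, where 0.0175% of all 5709 genes were called. With position-adjusted coverage it again called 0 of 10, and 0% of genes. The members differed by between -0.24 (Srm) and 0.28 (Sms) on that scale, with a median of -0.15 beside 0.01 over all genes, which the scaling largely fixes. For Srm, the spermidine synthase gene, the 95% interval was -0.56 to 0.09. In polysome RNA 0 of 10 were called between pLF and pMF (0.105% of genes, and 0.0261% with position-adjusted coverage), and 0 of 10 between pHF and pMF (0% of genes by either measure). In each of these comparisons 2 members had an unadjusted p under 0.05 by median coverage. Of all 5709 genes, 482 did so between pLF and pMF and 505 between pHF and pMF. With position-adjusted coverage 1 member did, Mat2b, at a log2 difference of pHF from pMF of 0.77 ± 0.18 (SE, limma adjusted p = 0.189). Of the 7674 genes tested with that measure, 945 did so in the comparison of pHF with pMF.

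The libraries labelled HF had lower coverage of Srm than MF, and position-adjusted coverage called 7 members lower. Between HF and MF the study's RNA-seq of total mRNA, in separate libraries, called only a few genes, with mild changes and no member among them. Its BS-seq of total mRNA, after further filters, gave a site in Fbn1 as the only call. Why these libraries differ more here was not tested. Srm was called by median coverage, at 339 and 359 against 986 and 921 in MF, a log2 difference of -1.45 ± 0.27 (SE; limma adjusted p = 0.0160). The 2 groups did not overlap. It was the single member called, where 6.92% of genes were, and leaving out any 1 of the 4 libraries took the adjusted p to between 0.0530 and 0.150. With position-adjusted coverage, 8 of 10 members were called, 7 lower and 1 higher, where 38.4% of genes were called with 1510 higher and 1436 lower (843 and 1889 with summed coverage as the scaling). The members' median was -0.78 beside -0.0014 over all genes. The scaling by gene-wise medians largely fixes the latter, which was -0.20 with summed coverage as the scaling.

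Of the polyamine genes, the position-adjusted differences of the libraries labelled HF from MF were -1.46 in Amd1, which makes decarboxylated SAM, -0.90 in Srm and -0.82 in Sms, the spermine synthase gene (SE 0.42, 0.15 and 0.23). Odc1, ornithine decarboxylase and the entry to the pathway, differed by -0.17 ± 0.16 and was not called. Over its 108 cytosines listed in all 12 libraries, however, the median coverage of Odc1 was called between these groups. By median coverage its difference was -1.59 ± 0.55 (659 and 708 against 1894 and 2217; limma adjusted p = 0.119), and in position-adjusted coverage of its parts it was -0.39 in the coding part and 1.59 in the 3′ UTR. Of the genes grouped with the methionine cycle, Ahcy, which splits S-adenosylhomocysteine, fell by 0.97 ± 0.23, Mat2b, the regulatory subunit of methionine adenosyltransferase, by 0.84 ± 0.18, Cbs by 0.73 ± 0.19 and Ahcyl1 by 0.46 ± 0.16. In Ahcyl1 the difference was 0.02 in the coding part and -0.91 in the 3′ UTR. Mtrr, the reductase that keeps methionine synthase active, rose by 0.96 ± 0.23 (limma adjusted p = 0.00588). Mat2a, the catalytic subunit, differed by -0.24 ± 0.23 and was not called. When 1 library was left out, 4 to 5 members were called. Srm and Mat2b passed each time. Ahcyl1 was lost without any of the 4 libraries, Amd1 without either MF library or HF replicate 1, Sms without MF replicate 2 or either library labelled HF, Cbs without MF replicate 1 or HF replicate 1, Mtrr without MF replicate 1 and Ahcy without HF replicate 2 (limma adjusted p from 0.0547 to 0.197). With the replicate block the adjusted p of Ahcyl1 was 0.0502.

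Polysome and total RNA were compared at each concentration. The scaled median coverage of Ahcyl1 in total RNA was 1244 and 1151 (LF), 1382 and 1403 (MF) and 1261 and 1177 (labelled HF). Its polysome values were 127 and 379 (pLF), 182 and 637 (pMF) and 432 and 1127 (pHF). All 6 polysome values were below all 6 total values. Between LF and pLF it fell by 2.45 ± 0.67 on the log2 scale (limma adjusted p = 0.0367), the single member called in a comparison that called 14.7% of genes. The call was lost without either LF library or pLF replicate 1 (adjusted p from 0.141 to 0.165), with summed coverage as the scaling (0.0564) and in a fit of these groups alone (0.0793).

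Srm, by contrast, was higher in polysome RNA at HF. Beside the values given for MF and the libraries labelled HF, its scaled coverage was 645 and 840 (LF), 947 and 1162 (pLF), 1118 and 1475 (pMF) and 1154 and 1034 (pHF). Against the libraries labelled HF, pHF was higher by 1.65 ± 0.27 (log2; limma adjusted p = 0.00619), the single member called in a comparison where 13.5% of genes were. In a fit of these groups alone the adjusted p was 0.0692. Between pMF and MF, 0 of 10 members were called by median coverage (14.2% of genes). An unadjusted p under 0.05 was found in 3 members and in 1784 of all 5709 genes.

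**Figure D4:**
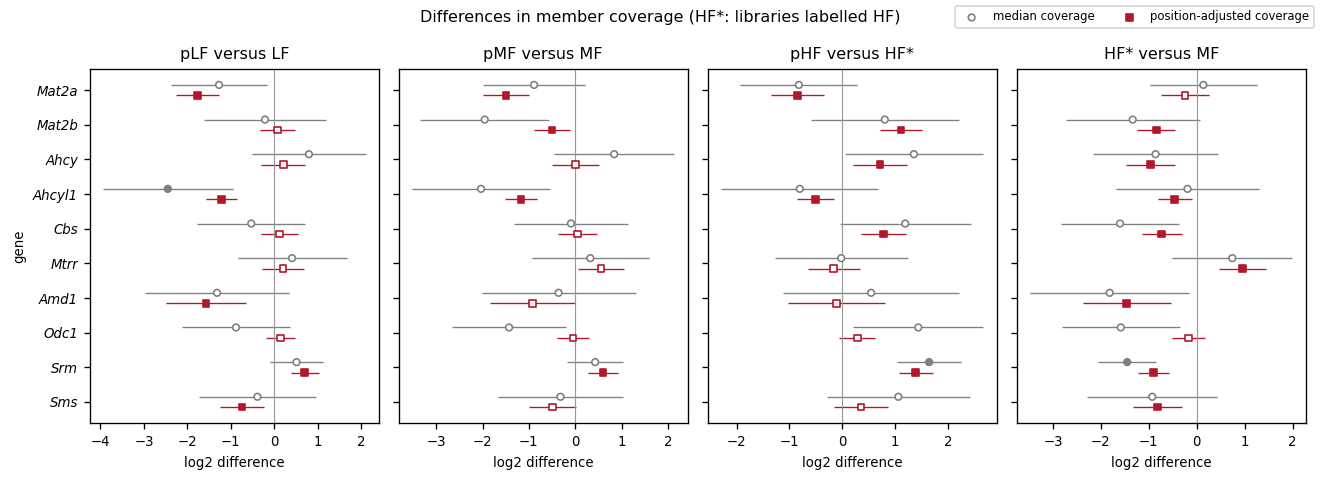
Log2 differences of the members with limma 95% intervals in 4 comparisons, by scaled median coverage (grey circles) and by position-adjusted coverage (red squares); filled symbols passed an adjusted p of 0.05. Mat2a and Ahcyl1 lie left of 0 and Srm right of 0 in the 3 comparisons of polysome with total RNA.

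Position-adjusted coverage called 5 of 10 members between pLF and LF (1 higher, 4 lower, 51.9% of genes called), 4 between pMF and MF (1 higher, 3 lower, 50.2%) and 6 between pHF and the libraries labelled HF (4 higher, 2 lower, 52%). The shares of members called were thus near those of all genes. In the fit without the libraries labelled HF, 5 and 4 members were called at LF and MF.

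Over its exonic positions together, Mat2a was lower in polysome RNA in each comparison. Its position-adjusted coverage in total RNA was 1.79 and 1.54 (LF), 1.76 and 1.67 (MF) and 1.52 and 1.39 (labelled HF). The polysome values were 0.41 and 0.59 (pLF), 0.54 and 0.69 (pMF) and 0.68 and 0.96 (pHF). The fractions did not overlap. The differences were -1.76 ± 0.23 at LF, -1.49 ± 0.23 at MF and -0.85 ± 0.23 at HF (limma adjusted p = 7.58e-05, 0.000259 and 0.00820). By median coverage the same differences were -1.27, -0.89 and -0.82, and none passed the threshold (limma adjusted p from 0.113 to 0.290). At HF the position-adjusted call was lost without HF replicate 1 or pHF replicate 1 (0.0556 and 0.0768).

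Ahcyl1 was lower in polysome RNA by 1.22 ± 0.16 at LF, 1.17 ± 0.16 at MF and 0.51 ± 0.16 at HF on the position-adjusted log2 scale (limma adjusted p = 9.10e-05, 0.000135 and 0.020). Its 6 polysome values, 0.63 to 0.88, were below its 6 total values, 1.16 to 1.62. Both differences at HF, of Mat2a and of Ahcyl1, were lost when libraries were scaled by summed coverage (limma adjusted p = 0.103 and 0.561), which set the median difference of all genes there to 0.35. That of Ahcyl1 was also lost without pHF replicate 1 or either library labelled HF (0.0736 to 0.0988).

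Srm was higher in polysome RNA by 0.70 ± 0.15 at LF, 0.60 ± 0.15 at MF and 1.39 ± 0.15 at HF (limma adjusted p = 0.00185, 0.00498 and 2.62e-05). The polysome values of 1.28 to 1.51 exceeded the total values of 0.77 to 0.96 in LF and MF and of 0.53 and 0.49 in the libraries labelled HF.

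Amd1 was lower in pLF than in LF by 1.57 ± 0.42 and Sms by 0.75 ± 0.23 (limma adjusted p = 0.00808 and 0.0179). Without pLF replicate 1 both calls were lost (0.0820 and 0.139), and that of Sms also without either LF library (0.103 and 0.0647). At MF their differences of -0.92 and -0.49 were not called (adjusted p = 0.0856 and 0.0990). Mat2b differed by 0.07 ± 0.18 at LF, fell by 0.50 ± 0.18 at MF (adjusted p = 0.0374, lost without either MF library or pMF replicate 1 and at 0.127 with summed coverage) and was higher by 1.11 ± 0.18 against the libraries labelled HF (adjusted p = 0.000354). Ahcy and Cbs were called against the libraries labelled HF, higher in polysome RNA by 0.72 ± 0.23 and 0.78 ± 0.19 (limma adjusted p = 0.0214 and 0.00501). The call of Ahcy was lost without HF replicate 2 or pHF replicate 2 (0.144 and 0.205). Odc1 and Mtrr passed in none of the 3 comparisons by this measure. By the median over cytosines listed in all 12 libraries, Odc1 was called between pHF and the libraries labelled HF. Without pHF replicate 2, the differences of pHF from the libraries labelled HF were -1.09 in Mat2a, -0.62 in Ahcyl1, 0.43 in Ahcy, 0.71 in Cbs, 1.18 in Mat2b and 1.41 in Srm, whose difference by median coverage was 1.73, and but for that of Ahcy they passed (limma adjusted p from 0.000434 to 0.0301).

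Between LF and MF, the difference in the polysome to total ratio was called in 0 of 10 members by either measure and in 0% of genes by either. That of Mat2b was 0.57 by position-adjusted coverage, with a 95% interval of 0.01 to 1.13 (limma unadjusted p = 0.0457, adjusted 0.999). At HF against MF, 0 of 10 were called by median coverage (0.596% of genes). By position-adjusted coverage 2 were, both higher, where 26.6% of genes were called: Mat2b by 1.61 ± 0.26 and Srm by 0.79 ± 0.21 (limma adjusted p = 0.00177 and 0.0169). The ratios of Ahcy and Cbs were 0.71 ± 0.33 and 0.74 ± 0.27 higher and did not pass (adjusted p = 0.132 and 0.0653). Without pHF replicate 2 the differences were 1.68 in Mat2b and 0.81 in Srm (limma adjusted p = 0.00723 and 0.0349). These ratios rest on the libraries labelled HF, and that of Srm was lost without either MF library, HF replicate 2 or pMF replicate 1 (0.0509 to 0.0667).

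The fit of a single value per gene assumes that libraries differ by the same factor along it, so the coding part and the 3′ UTR were also set side by side. The split was made after the values were seen and carries no test. In the coding part, Ahcyl1 was between 1.28 and 1.49 in all 6 total libraries and between 0.63 and 0.77 in all 6 polysome libraries. In its 3′ UTR the fractions overlapped, at 0.95 to 1.88 in total and 0.55 to 1.32 in polysome RNA. The difference of pHF from the libraries labelled HF was -0.85 in the coding part of Ahcyl1 and 0.0072 in its 3′ UTR. The coding part of Srm was 0.76 to 0.93 in LF and MF and 1.35 to 1.53 in polysome RNA. The polysome difference at MF in the coding part was -1.56 in Mat2a, -1.05 in Ahcyl1, -0.38 in Mat2b, -0.32 in Odc1, -0.30 in Sms, 0.07 in Cbs, 0.22 in Ahcy, 0.62 in Mtrr and 0.67 in Srm. Amd1 had too few coding cytosines.

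Sms differed between its parts in size. Its polysome difference at MF was -0.30 in the coding part and -1.29 in the 3′ UTR. The difference of the libraries labelled HF from MF was -0.60 and -1.78 in these parts of Sms. Odc1 differed between its parts as well. Its coding part was 1.02 to 1.20 in LF and MF and 0.90 to 1.06 in polysome RNA. Its 3′ UTR was 0.41 to 0.44 in LF and MF, 1.43 and 1.10 in the libraries labelled HF, and 1.37 to 2.12 in polysome RNA. The polysome difference in the 3′ UTR was thus 2.15 at LF and 1.89 at MF on the log2 scale, but 0.30 against the libraries labelled HF. Near-identical copies cover most of this transcript, as given above, and their part was not tested.

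Mat2a was covered unevenly along the gene in a manner that differed by fraction. Its 3′ UTR before the last 300 bases had a median coverage of 593 and 731 in LF and 877 and 744 in MF, and 35 to 170 in polysome RNA. In the last 300 bases the medians were 766 to 923 in LF and MF and 513 to 1301 in polysome RNA, which overlapped as raw reads. Raw reads do not rank the fractions in this stretch, since scaling lowered the MF values and raised those of pMF. The exonic median of Mat2a went from 780.5 to 540 in MF replicate 2 and from 285 to 387 in pMF replicate 2. In exon 1, the libraries labelled HF had medians of 1180 and 768 against 101 to 198 in LF and MF and 40 to 112 in polysome RNA. These are raw coverages over the cytosines each library listed, which in exon 1 were 1 or 2 in 5 polysome libraries and 27 in pHF replicate 1. In the libraries labelled HF, the medians were 417 and 1223 in the first of these stretches and 716 and 246 in the last 300 bases. The Mat2a 3′ UTR is known to hold hairpins that control splicing and stability of the transcript.

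The last intron of Mat2a (chr6:72434396-72434980), known to be retained in nuclear transcripts when SAM is plentiful, was listed mainly in total RNA. The listed cytosines numbered 4 and 3 (LF), 10 and 6 (MF) and 1 and 0 (labelled HF), with 1 in pHF replicate 1 and 0 in the 5 other polysome libraries. Their median coverage was 148 and 129 in LF, and 236 and 186 in MF, which is 14.0% to 23.8% of the exonic median of the same library. That exonic median, like the coverage of Mat2a as a gene, includes the cytosines of this intron, which another coding transcript holds as exon. The cytosine of pHF replicate 1 was at 31, which is 17.3% of its exonic median and within that range, and that of HF replicate 1 at 45, or 6.12%. With fewer than 5 cytosines in most libraries, no test was made, and a cytosine without an unconverted read is not listed however well it is covered.

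**Figure D5:**
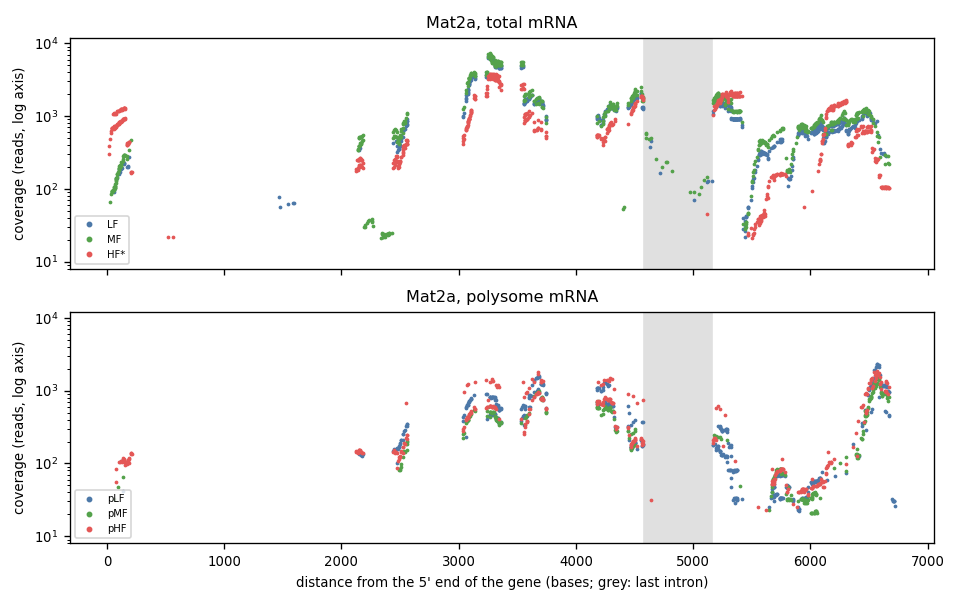
Coverage (reads, log axis) of the listed Mat2a cytosines with a level under 0.05 against the distance from the 5′ end of the gene in bases, for total and polysome RNA, both replicates of a condition in 1 colour; grey marks the last intron. In polysome RNA the 3′ UTR falls to medians of 35 to 170 before its last 300 bases, where total RNA of LF and MF has 593 to 877.

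Of 36 further genes of the pathways, 17 could be tested by median coverage and 23 by position-adjusted coverage. Between LF and MF, pLF and pMF, and pHF and pMF, 0 were called by either measure. Between the libraries labelled HF and MF, 2 of 17 rose and 1 fell by median coverage, beside 6.92% of all genes called. Slc3a2, a subunit of amino acid transporters, rose by 1.28 ± 0.27 (limma adjusted p = 0.0258). Sat1, which acetylates polyamines for export, fell by 1.51 ± 0.30 (limma adjusted p = 0.0196), but was not called by position-adjusted coverage. Calls of these further genes were not followed with single libraries left out. By position-adjusted coverage 9 of 23 rose, Slc3a2 by 1.77, and 2 fell, which were Apip (-1.09) and Oaz1 (-0.89), beside 38.4% of all genes called.

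In polysome against total RNA, the median coverage of 2 further genes rose and 1 fell at LF, 3 rose and 1 fell at MF, and 3 rose and 2 fell at HF, beside 14.7%, 14.2% and 13.5% of all genes called. Slc3a2 rose by 2.38 ± 0.27 at LF, 2.55 ± 0.27 at MF and 1.34 ± 0.27 at HF. Azin1, an inhibitor of the antizymes that mark ornithine decarboxylase for breakdown, fell by 1.75 ± 0.46 at LF and fell by 1.73 ± 0.46 at MF. The transaminase gene Got1 rose by 1.54 ± 0.44 at MF and 1.59 ± 0.44 at HF, Mri1 of methionine salvage by 1.57 ± 0.33 at LF and Sat1 by 1.97 ± 0.30 at HF, where Atp13a2, a lysosomal polyamine exporter, fell by 1.13 ± 0.27. The limma adjusted p of these calls was from 0.00126 (Slc3a2 at MF) to 0.0443 (Got1 at MF).

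By position-adjusted coverage, 11, 13 and 9 of the 23 rose and 4, 5 and 7 fell at LF, MF and HF, where 51.9%, 50.2% and 52% of all genes were called. In the salvage of methionine 3, 4 and 4 of 7 genes rose and 1, 2 and 2 fell, and in polyamine breakdown and use 3 of 5 rose and 0 fell in each. In the methionine cycle and transsulfuration 3, 3 and 1 of 5 rose and 2, 1 and 2 fell, and in the control of polyamines 2, 3 and 1 of 6 rose and 1, 2 and 3 fell. These counts are to be read against the same shares. Cth, which follows Cbs in cysteine synthesis, rose by 3.11 ± 0.38, 3.38 ± 0.38 and 2.75 ± 0.38. Mtap, the first enzyme of methionine salvage, fell by 1.22 ± 0.27 at LF, fell by 1.92 ± 0.27 at MF and fell by 0.80 ± 0.27 at HF. Neither Cth nor Mtap was among the genes called by median coverage, which asks for more cytosines in each library. The polysome to total ratio at HF differed from that at MF in 9 of the 23 (26.6% of all genes), with 3 higher and 6 lower, and Apip was the highest at 1.58. Among the lower was Slc3a2, at -1.52 ± 0.31 (limma adjusted p = 0.0048).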

How the data were processed

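Reads of the 12 libraries were trimmed (fastp) by the authors, mapped to unique places of mm10 (meRanGh), turned into cytosine calls (meRanCall) and assigned to genes (meRanAnnotate). The deposited counts are the coverage, methylated reads and variant reads of each cytosine, not normalized, and the deposited level is a fraction. The submitters' processing notes name R 4.1.1. The lists precede the authors' 3C, signal/noise and structure filters.

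Rows with a variant base, and 365526 rows naming several genes, were left out. Exons came from coding transcripts of GENCODE vM21, and introns from the transcript with the longest coding sequence, since a longer Mat2a transcript holds the last intron as exon. Log2 coverage was fitted with limma 3.58.1 in R 4.3.3 (lmFit, eBayes with trend) on all 12 libraries, adjusted by Benjamini-Hochberg over all genes at 0.05. Site levels were tested with scipy 1.17.1 (Fisher's exact test on pooled reads) where all libraries compared had 20 reads or more. Copies were found with BLAST 2.17.0. Both kinds of test were tested on simulated data (seed 20221123). Python 3.11.15, numpy 2.4.6, pandas 2.3.3 and matplotlib 3.10.9 were used.

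Members and lists were chosen with earlier results of these data known. Further genes of 4 fixed lists were named where they passed the threshold, at most 2 in each direction of a comparison, and 1 item that the rule names is not reported here. Alternatives covered the cytosines used, minimums, scaling, samples, tests, the replicate block and leaving out each replicate. The study calls the replicates biological, but no label ties them to separate cultures, so p-values measure the spread between these samples, which may be technical. Pooled reads carry no error term between replicates, and PCR reads are not independent molecules.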

Additional observations from a re-analysis of the deposited data

Results flagged for a closer look

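The polysome to total ratio, in position-adjusted coverage, was higher at HF than at MF by 1.61 on the log2 scale in Mat2b and by 0.79 in Srm, in limma's test of the difference between the 2 ratios. In Mat2b the log2 ratio changed sign, from -0.50 at MF to 1.11 at HF. In Srm it was 0.60 at MF and 1.39 at HF. Both differences between ratios rest on the libraries labelled HF. Without MF replicate 1, MF replicate 2, HF replicate 2 or pMF replicate 1, the call of Srm was lost (adjusted p from 0.0509 to 0.0667).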

How the results depend on the processing

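The number of members called by median coverage, between the libraries labelled HF and MF, pLF and LF, pMF and MF, and pHF and the libraries labelled HF, was 1, 1, 0 and 1, and 5, 3, 4 and 5 by mean coverage. Fitted on the groups of the comparison alone, it was 3, 0, 1 and 0. Over cytosines listed in all 12 libraries, where 2 members could be tested (Odc1 and Ahcyl1), 2, 1, 1 and 2 were called. Summed coverage gave 0 between pLF and LF and 2 between pHF and HF, and quantile normalization 1 between pMF and MF. Position-adjusted coverage gave 8, 5, 4 and 6. With summed coverage it gave 8, 5, 4 and 6, though in the last 2 comparisons not with the same members. Without the libraries labelled HF it gave 5 between pLF and LF and 4 between pMF and MF. For the polysome to total ratio at HF against MF, 0 became 1 by mean coverage, 2 by position-adjusted coverage and 4 with summed coverage. The cause was not tested. Over all genes, 395, 841, 808 and 770 were called in the 4 comparisons by median coverage and 2946, 3979, 3856 and 3992 by position-adjusted coverage. Summed coverage moved the split of higher and lower calls from 217 and 178 to 91 and 170 between HF and MF, from 437 and 404 to 445 and 188 between pLF and LF, from 433 and 375 to 544 and 129 between pMF and MF, and from 405 and 365 to 1169 and 56 between pHF and HF, where the median of all genes moved to 0.64. By position-adjusted coverage it moved the splits of the last 3 from 2002 and 1977 to 2022 and 1528, from 1971 and 1885 to 2224 and 1216, and from 2097 and 1895 to 2988 and 897, and that of the ratio at HF from 1032 and 1009 to 1231 and 507.

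With the replicate block, 1 member was called between pMF and MF, and with position-adjusted coverage 7, 5, 5 and 6 in these 4 comparisons and 2 for the ratio at HF. The replicate block also ended the call of the Cbs site in limma on log odds for the 7.14 points between HF and MF (adjusted p = 0.0553) and the 8.18 points between pMF and MF (0.0586). For the 4.70 points between pLF and LF the call was lost in limma on log odds without (0.101) and with it (0.0810). The member lost between HF and MF was Ahcyl1. Same-numbered replicates correlated between -0.06 and 0.04 in their deviations over genes by median coverage, and between -0.19 and 0.12 by position-adjusted coverage, so the numbers were not taken as pairs.

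Leaving out 1 replicate gave, by median coverage, 0 members between LF and MF, HF and MF, and pLF and pMF, and for the ratio at LF, 0 to 1 between pHF and pMF and between pLF and LF, 0 to 2 between pMF and MF, 1 to 2 between pHF and HF and 0 to 1 for the ratio at HF. By position-adjusted coverage it was 4 to 5, 3 to 5, 3 to 4 and 4 to 5 in the 4 comparisons and 1 to 4 for the ratio at HF. The Cbs site differed by -1.31 to 2.12 points between LF and MF, 4.06 to 10.2 between HF and MF, -3.88 to -2.28 between pLF and pMF, -2.80 to 6.42 between pHF and pMF, 2.98 to 6.41 between pLF and LF, 7.38 to 8.99 between pMF and MF, and -1.76 to 7.46 between pHF and HF.

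The coverage minimum, the contingency table, isolated sites, leaving out chromosome MT and the beta-binomial test changed no call of the Cbs site. No alternative was run for the last intron of Mat2a, with 1 and 0 listed cytosines in the libraries labelled HF. Coverage is known only at listed cytosines, so low coverage and full conversion limit every value here.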
